A study of Mus musculus with 8 samples.

Results

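The NF-kB transcription factor and the proteins that hold it back were followed through CD8 T cell activation on mouse expression arrays. Members were all probe sets that the platform annotation assigns to Rel, Rela, Relb, Nfkb2, Nfkbia, Nfkbib, Nfkbie, Nfkbiz, Bcl3 or Tnfaip3 and to no other gene. They gave 20 probe sets out of 45037 on the array that are not controls, and 10 genes out of the 12520 tested. All 20 probe sets and all 10 genes passed the filter on dim values. The gene of the remaining subunit, p50, was not analysed here.

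NF-kB is a family of dimers whose subunits are cRel (Rel), p65 (Rela), RelB (Relb), p52 (made from the product of Nfkb2) and p50. In resting lymphocytes the dimers are kept in the cytoplasm by IkB proteins, and signals from the T cell receptor pass through PKC theta to the IKK kinase, which marks IkB for destruction. Several genes of the inhibitors, among them those of IkBalpha (Nfkbia), IkBepsilon (Nfkbie) and A20 (Tnfaip3), are themselves textbook NF-kB targets and form feedback loops that end the signal.

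The T cells came from spleens of C57BL/6 mice, were selected with magnetic beads and were kept 18 h in culture beside dendritic cells of bone marrow origin, 1 dendritic cell for every 10 T cells. Wild-type T cells met dendritic cells with no added peptide (WT UN) or dendritic cells loaded with the ovalbumin peptide N4 (WT N4), and T cells lacking PKC theta (PKC theta KO N4) or lacking both p50 and cRel (p50 cRel DKO N4) met N4-loaded dendritic cells only. All groups then went through removal of CD11c-bearing cells, and 100 ng of total RNA was labelled per array, with 2 arrays in each of 4 groups. The antigen receptor of the T cells, the age of the mice and whether the deletions were limited to T cells are not given in the sources used here. Knockout cells without peptide were not analysed here, so in a difference between a knockout and WT N4 cells the response to peptide and the state before it cannot be told apart. Titles mark the second array of each group as Erep 2, and nothing states that arrays of 1 group stem from separate mice or cultures. The p-values thus measure only the spread between these arrays, part of which may be technical.

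All arrays had been scaled to a 2% trimmed mean of 500, and their median signals lay between 33.8 and 70.5. Replicate 2 had the higher median in each group. It was 70.5 against 52.8 in WT UN and 52.7 against 33.8 in WT N4. In PKC theta KO N4 it was 47.9 against 36.9, and in p50 cRel DKO N4 48.2 against 37.9. Within groups, the correlation of arrays across genes was 0.977 to 0.987. The CD8 T cell list was bright everywhere, with a summed signal over 6 genes of 29432 to 45148. Besides Cd8a and Cd8b1 it holds Cd3d, Cd3e, Cd3g and Cd2, which T cells in general express, so the sum does not measure CD8 purity. Markers of other cells were far higher without peptide. The summed signal of 11 B cell markers was 50168 and 35700 on the WT UN arrays and 752 to 3538 on the 6 arrays with N4, and that of 14 dendritic cell and macrophage markers was 67563 and 52977 against 2467 to 6390. For 7 neutrophil markers it was 20872 and 24662 against 275 to 720. Of the NK cell list only Tyrobp and Fcer1g were measured, without Ncr1 and Klrb1c. Tyrobp and Fcer1g summed to 17450 and 10621 against 327 to 810, and their sum is not read as a measure of NK cells. No marker list was at a signal of 0 on any array. All 11 B cell, 12 of 14 dendritic cell and macrophage and all 7 neutrophil markers fell from WT UN to WT N4 by limma, as did Tyrobp and Fcer1g. After quantile normalization or median centring 11 of those 14 fell and 1 rose. Of the 6 genes of the CD8 T cell list 2 rose in the main analysis. In the CD4 T cell list Zbtb7b and Gata3 fell and Cd40lg rose by limma, and Cd4 itself was not measured. In bulk RNA, fewer cells of a type and less RNA per cell cannot be told apart. Same-numbered arrays deviated together from their group means in all 6 pairs of groups, so that values with the replicate number as a block are given where they change a call. The part of the unlike array medians in those shared deviations was not tested. Sex-linked genes also differed between arrays. Eif2s3y, on the Y chromosome, lay at 10.65 to 11.20 on the log2 scale on the 4 wild-type arrays and at 5.42 to 6.73 on the 4 knockout arrays. Xist, on the X chromosome, did not follow genotype alone. Its level was 6.05 for WT UN replicate 1 but 11.84 for WT UN replicate 2. WT N4 cells gave 5.18 and 6.65, and knockout values ran from 12.27 to 12.57. WT UN replicate 2 was thus the only array high for both genes. Whether this unlike WT UN pair affects differences from WT UN was not tested.

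**Figure D1:**
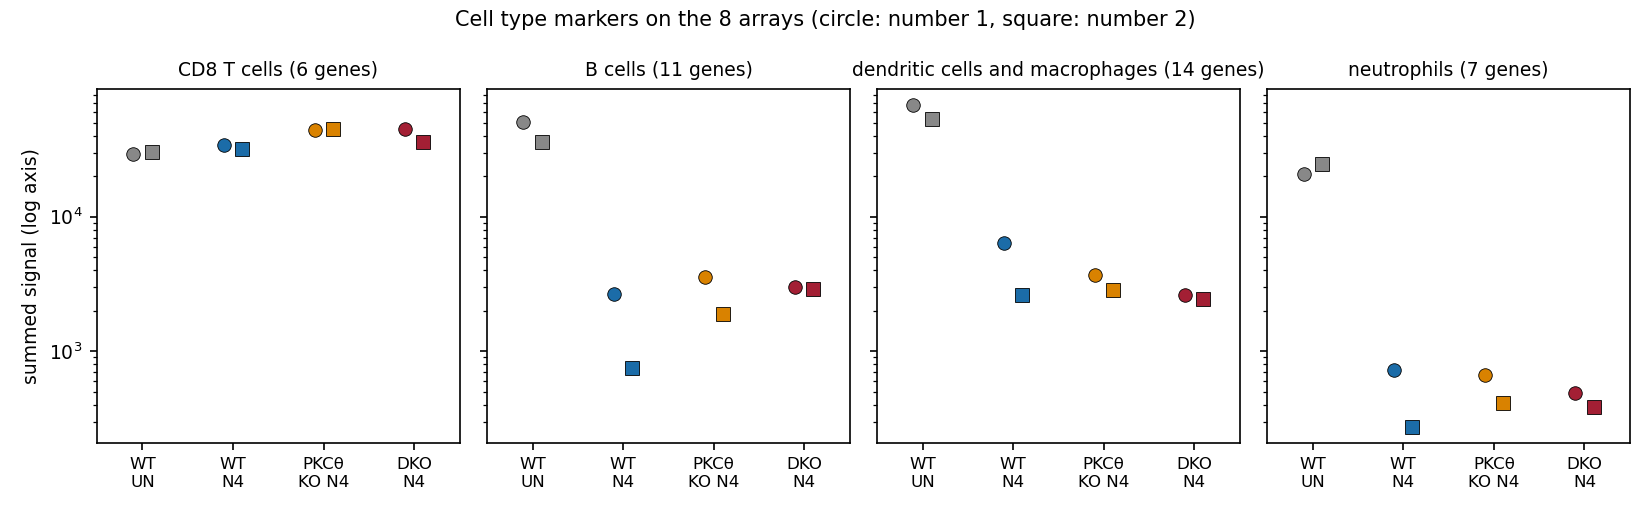
Levels of cell type markers on each array: the vertical axis, on a log scale, gives the summed linear signal of each marker list, and points are single arrays in the 4 groups (circle, replicate 1, square, replicate 2). Markers of B cells, of dendritic cells and macrophages and of neutrophils stand above the 6 arrays with N4 on both WT UN arrays. The CD8 T cell list, which includes genes of T cells in general, is bright on all 8.

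Promoters of the members were read for the site that NF-kB itself binds. RefSeq promoter windows (assembly GRCm38.p6, 250 bases before to 50 after a gene's start) were matched by symbol for 8 of the 10 genes, Relb and Nfkbiz excepted, and gave 11 windows. Each was searched on both strands for the 10-base kappa B consensus, the sequence that NF-kB dimers recognise. A match was present in 6 of the 8 genes (75.0%) and in 8 of the 11 windows (72.7%), against 9.55% of 27025 genes and 8.46% of 32851 windows of the same length in the whole table. The 250 bases upstream of the start are given for the 5 genes with a match there, as the 2 subunit genes and 3 inhibitor genes that carry one. They read 5′ to 3′ on the gene's strand, and capitals mark the letters of a kappa B match, overlapping matches being joined.
Rel (chr11:23770970-23771219, minus strand): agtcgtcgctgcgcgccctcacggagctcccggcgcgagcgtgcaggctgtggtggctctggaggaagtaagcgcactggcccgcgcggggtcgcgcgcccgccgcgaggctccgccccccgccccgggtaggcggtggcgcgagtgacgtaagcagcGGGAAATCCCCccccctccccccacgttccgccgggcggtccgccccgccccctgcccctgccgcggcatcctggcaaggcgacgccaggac
Nfkb2, first of 3 windows (chr19:46304487-46304736, plus strand): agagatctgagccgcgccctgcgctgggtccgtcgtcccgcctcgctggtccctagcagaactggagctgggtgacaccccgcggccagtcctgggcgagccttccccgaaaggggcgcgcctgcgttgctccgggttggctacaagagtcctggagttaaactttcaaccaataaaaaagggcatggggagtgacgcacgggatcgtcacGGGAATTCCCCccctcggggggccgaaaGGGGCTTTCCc
Nfkbia (chr12:55492648-55492897, minus strand): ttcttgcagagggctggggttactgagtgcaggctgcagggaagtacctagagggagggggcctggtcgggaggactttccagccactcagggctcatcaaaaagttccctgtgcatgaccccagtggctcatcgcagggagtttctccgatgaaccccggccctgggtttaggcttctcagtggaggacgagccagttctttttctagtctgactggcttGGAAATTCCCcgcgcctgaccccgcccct
Nfkbie (chr17:45555450-45555699, plus strand): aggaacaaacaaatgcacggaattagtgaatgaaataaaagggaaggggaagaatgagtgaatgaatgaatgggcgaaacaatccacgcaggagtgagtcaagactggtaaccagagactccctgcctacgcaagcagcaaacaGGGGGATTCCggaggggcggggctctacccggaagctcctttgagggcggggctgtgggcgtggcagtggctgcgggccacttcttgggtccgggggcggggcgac
Tnfaip3, first of 2 windows (chr10:19015411-19015660, minus strand): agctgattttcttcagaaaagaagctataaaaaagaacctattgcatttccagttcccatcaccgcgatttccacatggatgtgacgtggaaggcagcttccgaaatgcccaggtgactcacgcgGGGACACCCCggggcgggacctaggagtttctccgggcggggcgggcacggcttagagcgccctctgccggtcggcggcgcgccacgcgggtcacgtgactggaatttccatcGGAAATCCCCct

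The match nearest to a start on the upstream side began 11 bases before the Nfkb2 start (GGGGCTTTCC), and that window held a further pair of overlapping matches from 39 bases upstream (GGGAATTCCC and, on the other strand, GGAATTCCCC). In Tnfaip3 the matches lay 12 bases (GGAAATCCCC) and 125 bases (GGGACACCCC) upstream. Nfkbia had 1 match at 29 bases (GGAAATTCCC), and Nfkbie 1 at 106 bases (GGGGGATTCC). Rel had a pair of overlapping matches from 92 bases upstream (GGGAAATCCC). Bcl3 had 1 match that began 3 bases after its start (GGGAAGTCCC). No match was found in the windows of Rela and Nfkbib or in the second window of Tnfaip3, which says only that these letters are not in those windows. A match describes the sequence and is not a measured binding site.

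Of the subunits, Rel checks the labels. The Rel probe set lay at 10.09 and 9.83 on the WT UN arrays, 9.82 and 9.53 on the WT N4 arrays, 9.63 and 8.97 on the PKC theta KO N4 arrays and 6.19 and 5.92 on the p50 cRel DKO N4 arrays, as log2(signal + 16). In linear signal that is 486 to 1073 on the first 6 arrays and 56.8 and 44.6 in the double knockout. Both double knockout arrays stand far below all the others, as their label says, though the position of the probes in the gene is not given. The double knockout signals lay near the medians of all probe sets on those arrays, 37.9 and 48.2, so no fold is given. Rel was lower in p50 cRel DKO N4 than in WT N4 cells (log2 difference -3.62, SE 0.26, n = 2 per group, limma adjusted p = 0.000984). Against PKC theta KO N4 cells the difference was -3.25 (limma adjusted p = 0.00361), and it no longer passed when either double knockout array was left out (limma adjusted p = 0.0563 and 0.0644). Between WT UN and WT N4 cells Rel differed by -0.29 (SE 0.26, limma adjusted p = 0.420), and between PKC theta KO N4 and WT N4 cells by -0.37 (95% interval -0.96 to 0.22). Neither of those passed the test. Centred on array medians, the difference of WT N4 from WT UN turned to 0.13.

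Rela, the p65 subunit that activates transcription in many NF-kB dimers, had the narrowest range of the 10 genes, 11.06 to 11.79. Its values were 11.79 and 11.60 in WT UN, 11.46 and 11.29 in WT N4, 11.34 and 11.06 in PKC theta KO N4 and 11.43 and 11.23 in p50 cRel DKO N4 cells. WT UN lay above the other groups, and the 3 groups with N4 overlapped. With N4 in wild-type cells it differed by -0.32 (SE 0.16, limma adjusted p = 0.141, and 0.0228 with the replicate block), a difference that turned to 0.10 when arrays were centred on their medians. Between the double knockout and WT N4 cells the difference was -0.04, with a 95% interval of -0.40 to 0.32.

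Relb, the partner of p52 in the non-canonical arm of the pathway, had its highest values in the double knockout. Its probe set lay at 10.57 and 10.54 in WT UN, 10.18 and 9.82 in WT N4, 10.08 and 9.60 in PKC theta KO N4 and 11.05 and 10.81 in p50 cRel DKO N4 cells. The double knockout arrays lay above all the other 6. The difference from WT N4 cells was 0.93 (SE 0.21, 95% interval 0.46 to 1.398, 1.90-fold), which did not pass after adjustment over all genes (limma adjusted p = 0.142, unadjusted p = 0.00163). Against PKC theta KO N4 cells it was 1.09 (95% interval 0.62 to 1.56, limma adjusted p = 0.0842). With the replicate block both differences passed (limma adjusted p = 0.0165 and 0.0101). B cell markers summed to 2984 and 2904 on the double knockout arrays, 2676 and 752 in WT N4 and 3538 and 1892 in PKC theta KO N4 cells, and their part in the Relb difference was not tested. From WT UN to WT N4 cells Relb differed by -0.56 (SE 0.21, limma adjusted p = 0.0601, and 0.00934 with the replicate block).

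Nfkb2, whose product p100 is both the precursor of p52 and an inhibitor, gave no difference that passed with its brighter probe set. That probe set lay at 10.97 and 10.69 in WT UN, 11.36 and 10.63 in WT N4, 11.02 and 10.38 in PKC theta KO N4 and 11.59 and 10.96 in p50 cRel DKO N4 cells. The arrays of all 4 groups overlapped. Its difference with N4 in wild-type cells was 0.17 (SE 0.31, limma adjusted p = 0.720), while the other Nfkb2 probe set gave -0.67 (SE 0.39, limma adjusted p = 0.244). Probe sets of this gene thus disagree in sign in that comparison. The other probe set was lower in PKC theta KO N4 than in WT UN cells (-1.20, limma adjusted p = 0.0477 over all probe sets), where the brighter one gave -0.13. With the replicate block the brighter one passed as higher in the double knockout than in WT UN cells (0.44, limma adjusted p = 0.0226, against 0.307 without the block).

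**Figure D2:**
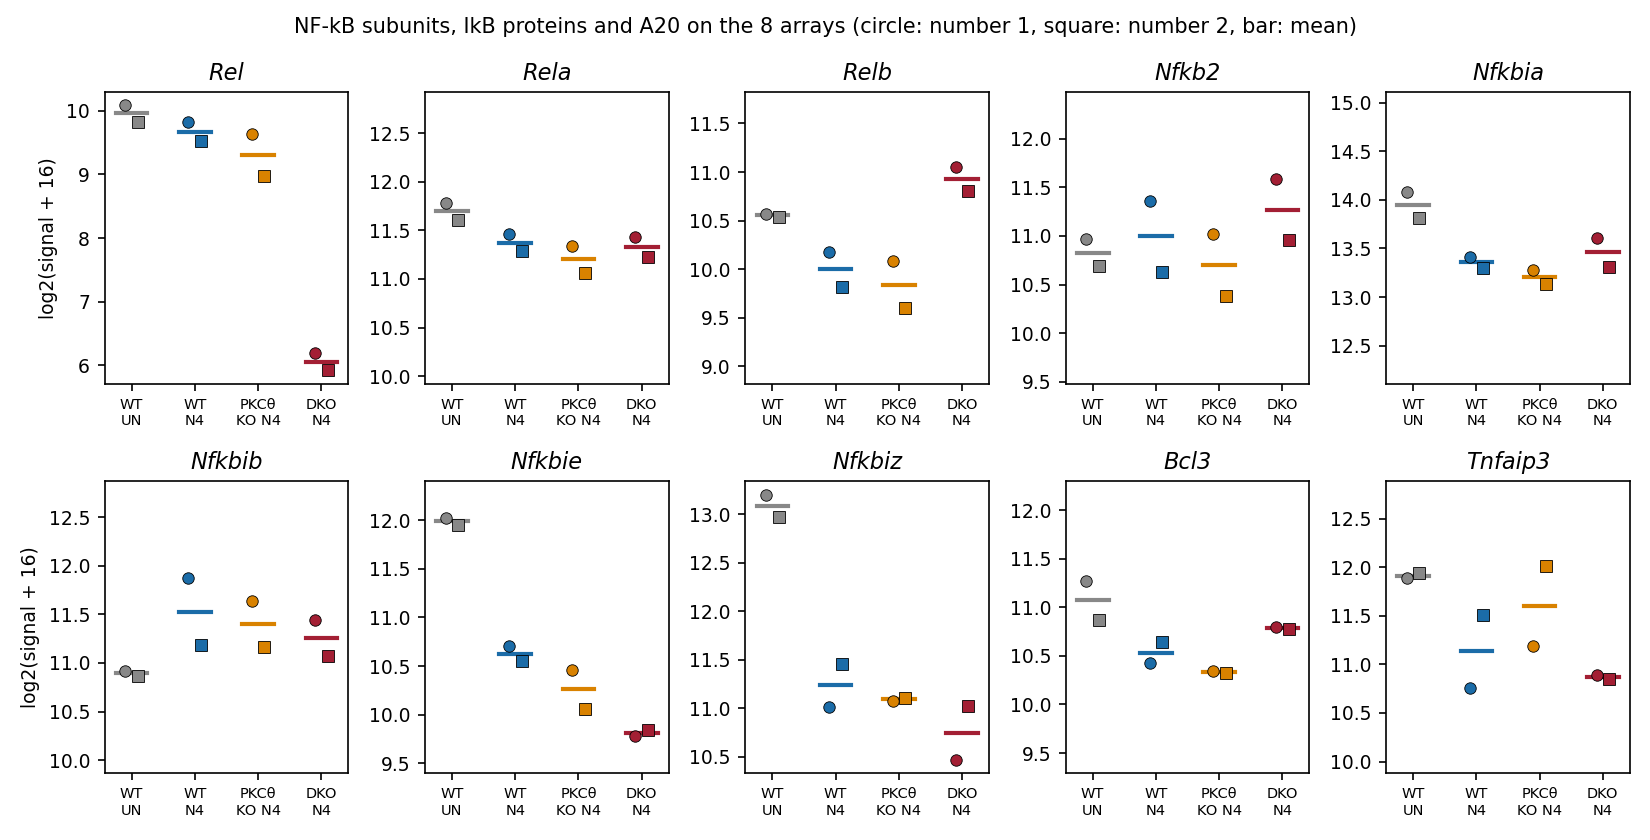
Level of the 10 genes on each array: the vertical axis is log2(signal + 16) of the brightest probe set of each gene, points are single arrays (circle, replicate 1, square, replicate 2) and bars are group means, in 4 groups of 2 arrays, and each panel has its own range. Rel falls to 6.19 and 5.92 in the double knockout, Nfkbie and Nfkbiz are highest on both WT UN arrays, and Relb is highest on both double knockout arrays.

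Among the cytoplasmic inhibitors, Nfkbie showed the clearest order of groups on its brighter probe set. IkBepsilon, its product, holds cRel and p65 dimers in the cytoplasm and is replaced slowly after a signal. Nfkbie lay at 12.02 and 11.96 in WT UN, 10.70 and 10.55 in WT N4, 10.46 and 10.06 in PKC theta KO N4 and 9.78 and 9.84 in p50 cRel DKO N4 cells. On this brighter Nfkbie probe set the 4 groups did not overlap and lay in that order from high to low. With N4 it fell 2.57-fold in wild-type cells, from 11.99 ± 0.05 to 10.63 ± 0.10 (SD, n = 2; log2 difference -1.36, SE 0.17, limma adjusted p = 0.000352), and the gap between WT UN and WT N4 was the only one between neighbours in the order that passed. The double knockout differed from WT N4 cells by -0.82 (95% interval -1.20 to -0.44), which did not pass (limma adjusted p = 0.103, unadjusted p = 0.000901) unless the replicate block was used (0.0231). The second Nfkbie probe set gave -1.401 with N4 (limma adjusted p = 0.0114 over all probe sets) and -0.82 in the double knockout (limma adjusted p = 0.862). On that probe set the WT N4 arrays (9.56 and 8.90) overlapped those of PKC theta KO N4 (9.32 and 8.50).

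Nfkbia encodes IkBalpha, the inhibitor that is destroyed first and made again fastest. Its brightest probe set lay at 14.08 and 13.81 in WT UN, 13.41 and 13.30 in WT N4, 13.28 and 13.14 in PKC theta KO N4 and 13.61 and 13.31 in p50 cRel DKO N4 cells. WT UN stood above the 3 groups with N4, which lay close together. Nfkbia fell 1.50-fold with N4 in wild-type cells (13.95 ± 0.19 to 13.36 ± 0.08, log2 difference -0.59, SE 0.15, limma adjusted p = 0.0120). The other 4 Nfkbia probe sets gave -0.45 to -1.08, and 3 of them passed over all probe sets. The fall no longer passed without WT UN replicate 1 (limma adjusted p = 0.0729), without WT N4 replicate 2 (0.0685) or with arrays centred on their medians (-0.17, limma adjusted p = 0.602). Among N4-stimulated cells Nfkbia differed little: -0.15 between PKC theta KO and WT (95% interval -0.48 to 0.19) and 0.10 between the double knockout and WT (-0.23 to 0.44).

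Nfkbib, the gene of IkBbeta, had larger values on the N4 arrays than on the WT UN arrays. Rel, Rela, Nfkbia, Nfkbie, Nfkbiz and Bcl3 had smaller values on the N4 arrays. The share of all genes that separate in either way is not given. Nfkbib lay at 10.92 and 10.87 in WT UN, 11.87 and 11.18 in WT N4, 11.64 and 11.16 in PKC theta KO N4 and 11.44 and 11.07 in p50 cRel DKO N4 cells. The N4 groups overlapped among themselves. In wild-type cells the difference with N4 was 0.64 (SE 0.25, limma adjusted p = 0.0755), which did not pass. It passed in 3 of 18 alternatives, with the replicate block (0.64, limma adjusted p = 0.00690), with arrays centred on their medians (1.06, limma adjusted p = 0.0264) and without WT N4 replicate 2 (0.98, limma adjusted p = 0.0170). A second, dim Nfkbib probe set, between 4.66 and 6.51 on the 8 arrays, gave -0.26 (limma adjusted p = 0.664).

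The nuclear, atypical IkB proteins act on NF-kB already bound to DNA: IkBzeta (Nfkbiz) and Bcl3 work mainly with p50 or p52 homodimers. Nfkbiz fell most of the 10 genes from WT UN to WT N4. It lay at 13.20 and 12.97 in WT UN, 11.01 and 11.46 in WT N4, 11.07 and 11.11 in PKC theta KO N4 and 10.47 and 11.02 in p50 cRel DKO N4 cells, so that both WT UN arrays stood well above the other 6. On this brightest probe set WT N4 arrays overlapped those of each knockout, and the double knockout arrays lay below the PKC theta KO arrays. In wild-type cells the fall with N4 was 3.62-fold, from 13.09 ± 0.16 to 11.24 ± 0.31 (SD, n = 2; log2 difference -1.85, SE 0.21, limma adjusted p = 0.000270). Its other 2 probe sets gave -2.07 and -2.16. The double knockout differed from WT N4 by -0.49 (SE 0.21, limma adjusted p = 0.785) and PKC theta KO from WT N4 by -0.14 (95% interval -0.63 to 0.34). On the other 2 probe sets the double knockout differed from WT N4 by -0.33 and 0.04, and PKC theta KO from WT N4 by -0.65 and -0.35. In group means the double knockout there lay above PKC theta KO, by 0.32 and 0.39.

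Bcl3 lay at 11.27 and 10.87 in WT UN, 10.42 and 10.65 in WT N4, 10.34 and 10.32 in PKC theta KO N4 and 10.80 and 10.78 in p50 cRel DKO N4 cells. PKC theta KO arrays were lowest and WT UN arrays highest, with no overlap between any of the 4 groups. It fell 1.45-fold with N4 in wild-type cells (log2 difference -0.54, SE 0.17, limma adjusted p = 0.0328). That call passed in 11 of 18 alternative analyses. It was lost, for example, without WT UN replicate 1 (-0.34, limma adjusted p = 0.213), without WT N4 replicate 1 (0.177) and without either double knockout array (0.0552 and 0.0550), and with arrays centred on their medians (-0.12, limma adjusted p = 0.684). The double knockout differed from WT N4 by 0.25 (95% interval -0.13 to 0.64) and from PKC theta KO N4 by 0.46 (95% interval 0.07 to 0.84, limma adjusted p = 0.583).

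Tnfaip3 encodes A20, the ubiquitin-editing enzyme that shuts off signalling upstream of IKK. It lay at 11.89 and 11.94 in WT UN, 10.76 and 11.51 in WT N4, 11.19 and 12.01 in PKC theta KO N4 and 10.89 and 10.85 in p50 cRel DKO N4 cells. The WT N4 and PKC theta KO N4 arrays spread widely and overlapped each other, while the WT UN and double knockout pairs were each tight. With N4 in wild-type cells the difference was -0.78 (SE 0.29, limma adjusted p = 0.0641). It passed in 6 of 18 alternatives, among them the analysis without WT N4 replicate 2 (-1.15, limma adjusted p = 0.0187), the replicate block (0.0155) and those without either PKC theta KO array (0.0292 and 0.0291), and a second probe set gave -0.28 (limma adjusted p = 0.656). Tnfaip3 was the only member with a positive difference in PKC theta KO N4 against WT N4 cells (0.46, 95% interval -0.20 to 1.13), and against PKC theta KO N4 the double knockout differed by -0.73 (95% interval -1.396 to -0.06, limma adjusted p = 0.649).

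**Figure D3:**
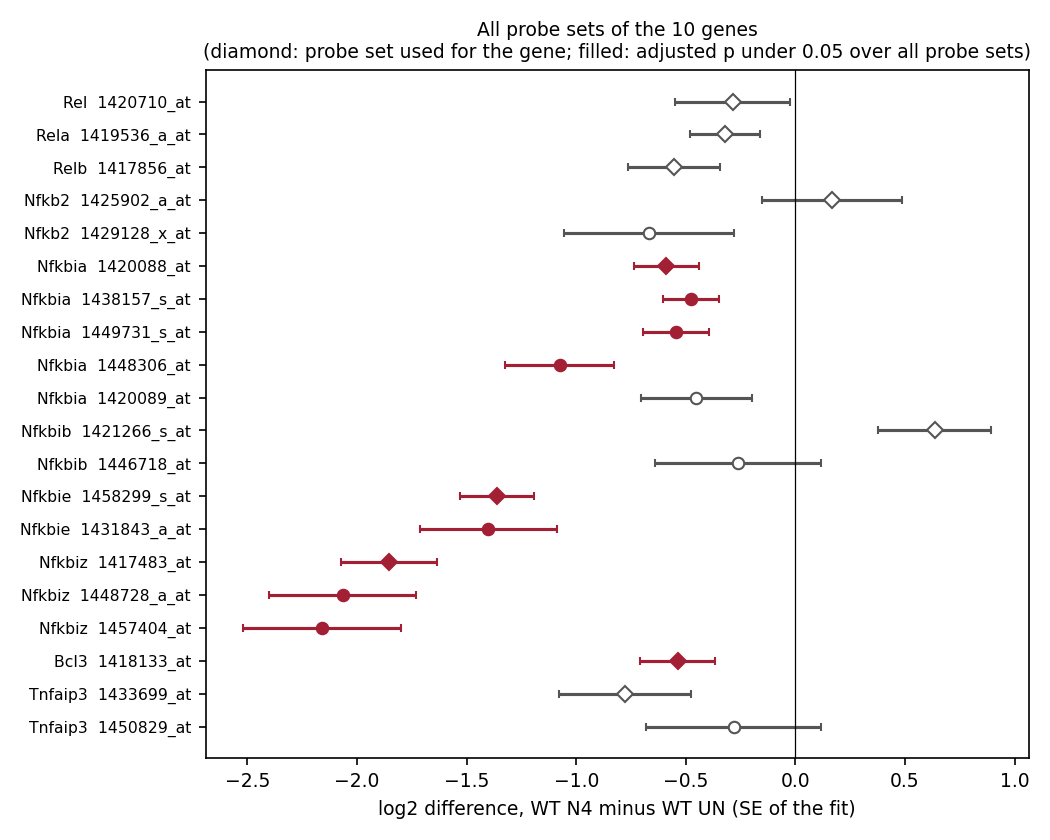
Difference between WT N4 and WT UN cells for each of the 20 probe sets of the 10 genes: the horizontal axis is the log2 difference, bars are the SE of the limma fit over all probe sets, diamonds mark the probe set used for the gene, and filled points passed at an adjusted p under 0.05. Probe sets of Nfkbia, Nfkbie and Nfkbiz lie on the same side, while those of Nfkb2 and Nfkbib lie on both sides of 0.

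Seen by comparison, with N4 peptide in wild-type cells Nfkbia, Nfkbie, Nfkbiz and Bcl3 fell, 4 of 10 members, and the other 6, among them the inhibitor genes Nfkbib (0.64) and Tnfaip3 (-0.78), did not pass. Of all 12520 genes, 40.7% passed, 23.5% lower and 17.2% higher, so that 4 of 10 is close to the share of all genes called. The members' median difference was -0.55 and that of all genes -0.10. By unadjusted p under 0.05, for which no share of all genes is given, 7 members were counted. Nfkbie and Nfkbiz passed in all 18 alternatives, and without WT UN replicate 1 they were the only 2 that did. Over single probe sets 10 of 20 fell and none rose, where 17.3% of 27022 probe sets were lower. Those 10 are repeated readings of the same 4 genes and add no further member. With the replicate block 8 members passed, 1 higher (Nfkbib) and 7 lower, where 51.1% of all genes passed. With arrays centred on their medians Nfkbia and Bcl3 no longer passed, so that 1 member rose (Nfkbib) and 2 fell (Nfkbie and Nfkbiz), and the share of calls over all genes that were higher moved from 42.3% to 67.9%. That centring moved the median of all genes to 0.32, and relative to the median of all genes Nfkbie differed by -1.26, Nfkbiz by -1.75, Nfkbia by -0.49 and Bcl3 by -0.44. Markers of B cells, dendritic cells, macrophages and neutrophils fell in the same comparison, by the sums given above. Their part in the falls of the members was not tested.

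**Figure D4:**
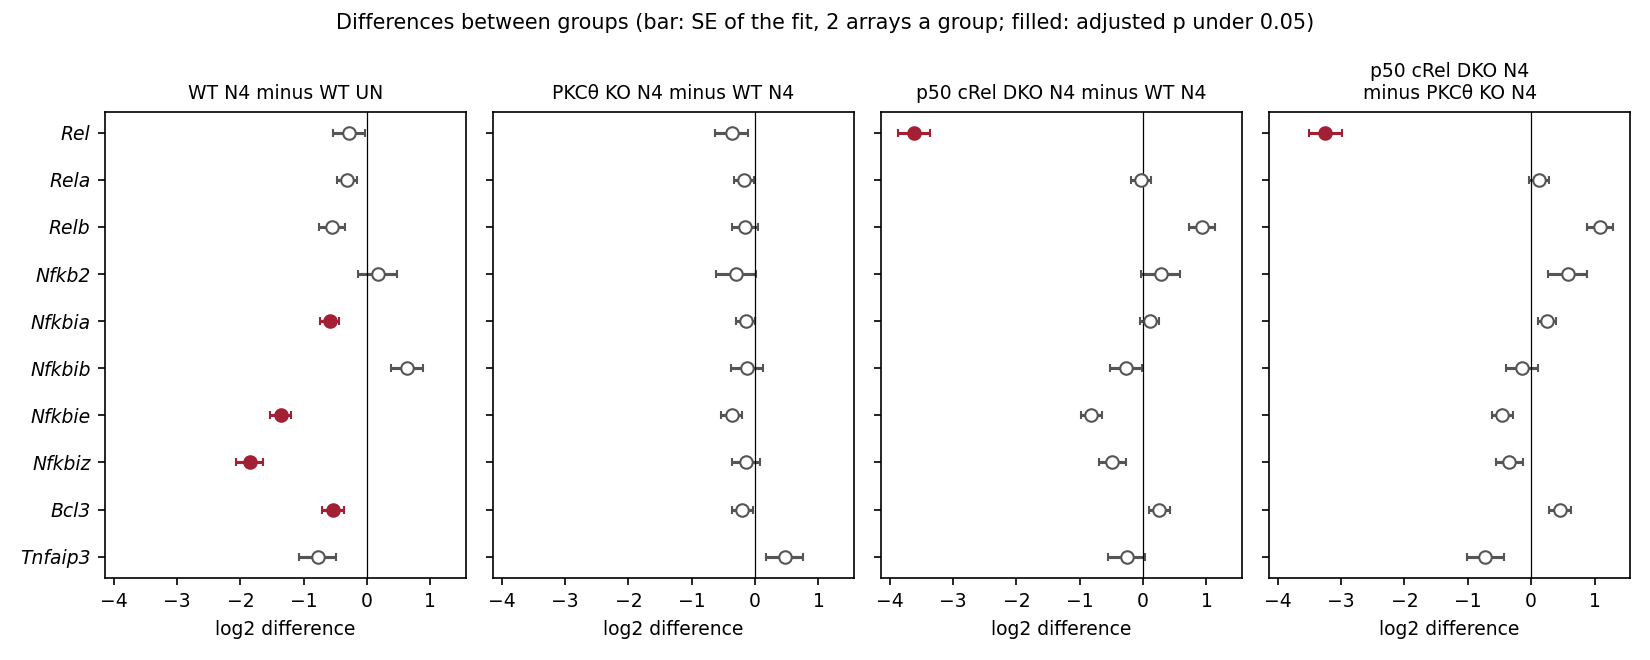
Differences of the 10 genes in 4 comparisons of groups: the horizontal axis is the log2 difference with its SE from limma (2 arrays a group), and filled points passed at an adjusted p under 0.05. Nfkbia, Nfkbie, Nfkbiz and Bcl3 pass below 0 for WT N4 against WT UN, none pass for PKC theta KO against WT, and Rel alone passes for the double knockout.

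Loss of PKC theta, the kinase that links the T cell receptor to NF-kB, left no member past the test. None of 10 members changed between PKC theta KO N4 and WT N4 cells by limma, none had an unadjusted p under 0.05, and 0.0240% of all genes passed. That share is 3 genes, all lower and all on the Y chromosome (Eif2s3y, Kdm5d and Uty), so sex-linked transcripts differ with genotype here, and their part in the members' differences was not tested. Differences ran from -0.37 to 0.46, 9 of 10 were below 0, and the median was -0.17 against -0.02 for all genes. The share of all genes below 0 is not given, so the 9 of 10 is not compared with it. The lowest unadjusted p was that of Nfkbie (-0.37, unadjusted p = 0.0554 by limma). The interval of each member allows a change: for Nfkb2 it ran from -1.01 to 0.41 and for Nfkbia from -0.48 to 0.19. Prkcq itself lay at 10.88 ± 0.18 in PKC theta KO and 11.54 ± 0.28 in WT N4 cells (SD, n = 2), a difference of -0.66 with a limma adjusted p of 1.00, so its transcript does not check the label firmly. The position of its probes in the gene is not given.

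Loss of p50 and cRel changed 1 of 10 members against WT N4 cells, the deleted Rel itself, where 0.519% of all genes passed (0.272% lower). Relb and Nfkbie came next, one higher and one lower, and neither passed unless the replicate block was used, which gave 3 members where 1.60% of all genes passed. The median of the 10 was -0.15 against 0.00 for all genes, and 4 members had an unadjusted p under 0.05 by limma (Rel, Relb, Nfkbie and Nfkbiz). Between the double knockout and PKC theta KO N4 cells Rel again was the 1 member of 10 that passed, with 0.431% of all genes past the test (0.192% lower), and the members' median was -0.01 against 0.02. In that comparison 5 members had an unadjusted p under 0.05, namely Rel, Relb, Nfkbie, Bcl3 and Tnfaip3. The shares of all genes above are for adjusted p. No share is given for unadjusted p, so the unadjusted counts are not compared with all genes.

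Each knockout was also set against WT UN cells, and those comparisons share the WT UN arrays with that of WT N4. In PKC theta KO N4 cells 6 of 10 members were lower than in WT UN, where 40.6% of all genes passed (24.0% lower). They were Rela (-0.49), Relb (-0.72), Nfkbia (-0.74), Nfkbie (-1.73), Nfkbiz (-1.997) and Bcl3 (-0.74). In p50 cRel DKO N4 cells 5 of 10 were lower, Rel (-3.91), Nfkbia (-0.49), Nfkbie (-2.18), Nfkbiz (-2.34) and Tnfaip3 (-1.04), where 39.3% of all genes passed (22.8% lower). The second Tnfaip3 probe set gave -0.68 there (limma adjusted p = 0.253 over all probe sets). With the mean of its probe sets Tnfaip3 did not pass (-0.86, limma adjusted p = 0.0666). Bcl3 differed there by -0.28 and Relb by 0.37, neither past the test. Without WT UN replicate 1 the counts were 3 (Nfkbia, Nfkbie and Nfkbiz) and 3 (Rel, Nfkbie and Nfkbiz), and without double knockout replicate 2 the second was 3. Centred on array medians, Rela (-0.04, limma adjusted p = 0.906), Relb (-0.27, 0.457), Nfkbia (-0.29, 0.366) and Bcl3 (-0.29, 0.302) no longer passed for PKC theta KO N4, which left Nfkbie and Nfkbiz lower, with Nfkbib higher. For the double knockout Nfkbia (-0.07) and Tnfaip3 (-0.62) no longer passed, which left 3 lower, with Relb higher. With that centring the share of calls over all genes that were higher moved from 40.7% to 68.3% and from 42.0% to 67.8%. Side by side for WT N4, PKC theta KO N4 and p50 cRel DKO N4 cells against WT UN, Nfkbie differed by -1.36, -1.73 and -2.18, and Nfkbiz by -1.85, -1.997 and -2.34. Those are values of the brightest probe set of each gene. The other Nfkbiz probe sets did not keep that order. They gave -2.07, -2.71 and -2.39, and -2.16, -2.51 and -2.12, lowest in PKC theta KO N4 cells.

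Further genes of the pathway were counted in 4 lists with 65 measured genes of 71. With N4 in wild-type cells 9 rose, 24 fell and 32 did not pass, with a median of -0.43 against -0.10 for all genes, of which 17.2% rose and 23.5% fell. Centred on array medians 17 rose and 14 fell, so the balance of directions depends on the scaling. Of 14 receptor-proximal and IKK genes 3 rose and 3 fell (5 and 0 with median centring). Map3k7, the gene of the kinase TAK1 upstream of IKK, rose by 0.92, Ube2n, which makes the ubiquitin chains that TAK1 is activated by, rose by 0.76, and Bcl10 fell by 0.63 and Ikbkb, an IKK subunit, by 0.52, neither past the test with median centring (limma adjusted p = 0.424 and 0.737). The non-canonical arm had 2 rises and 5 falls among 10 genes (3 and 4 with median centring). The costimulatory receptor Tnfrsf4 (OX40) rose by 2.55, while lymphotoxin beta (Ltb) fell by 3.24, its receptor Ltbr by 2.55 and Birc2, a ubiquitin ligase that keeps the arm silent, by 1.13. These are log2 differences by limma, with adjusted p of 0.0163 or lower.

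Of 17 measured negative regulators other than the members, 7 fell, none rose and 10 did not pass with N4 in wild-type cells, with a median of -0.52. The share that passed is close to the 40.7% of all genes (23.5% lower and 17.2% higher). With median centring 4 rose and 3 fell. Tnip1, a protein that binds A20, fell by 1.39, and Tax1bp1, which recruits A20 to its substrates, by 0.71, not past the test with median centring (limma adjusted p = 0.288). Zc3h12a, an RNase that degrades cytokine transcripts, fell by 1.96, and Pdlim2, a ligase that removes nuclear p65, by 1.48. Of 24 measured lymphocyte targets 4 rose, 9 fell and 11 did not pass (5 and 7 past the test with median centring), where 17.2% of all genes rose and 23.5% fell. Il2, a growth factor that T cells make on activation, rose by 4.19 and the alpha chain of its receptor, Il2ra, by 3.81, while Tnfrsf1b fell by 2.16 and Slc2a6 by 2.65 on the log2 scale. B cell, myeloid and neutrophil markers moved with these falls as well, and their part was not tested.

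In the knockouts few pathway genes passed. Between PKC theta KO N4 and WT N4 cells none of 65 changed by limma. Il2 differed by -2.22 (limma adjusted p = 0.135) and Tnfrsf4 by -1.16 (0.537). Between the double knockout and WT N4 cells 1 rose and 1 fell, where 0.519% of all genes passed. Ltb rose by 2.20 (limma adjusted p = 0.00264), and Il2 fell by 4.12 (0.000984). B cells express Ltb too, and the B cell marker sums given with Relb were 2984 and 2904 in the double knockout and 2676 and 752 in WT N4 cells. Their part in the Ltb rise was not tested. Gadd45b (-0.68), Bcl2l1 (-0.66), Traf1 (-0.60) and Bcl10 (0.50) did not pass, though Gadd45b did with the replicate block (limma adjusted p = 0.0437). Between both knockouts Ltb was higher by 2.13 (limma adjusted p = 0.00621) and Il2 lower by 1.90 (0.0416) in the double knockout.

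**Figure D5:**
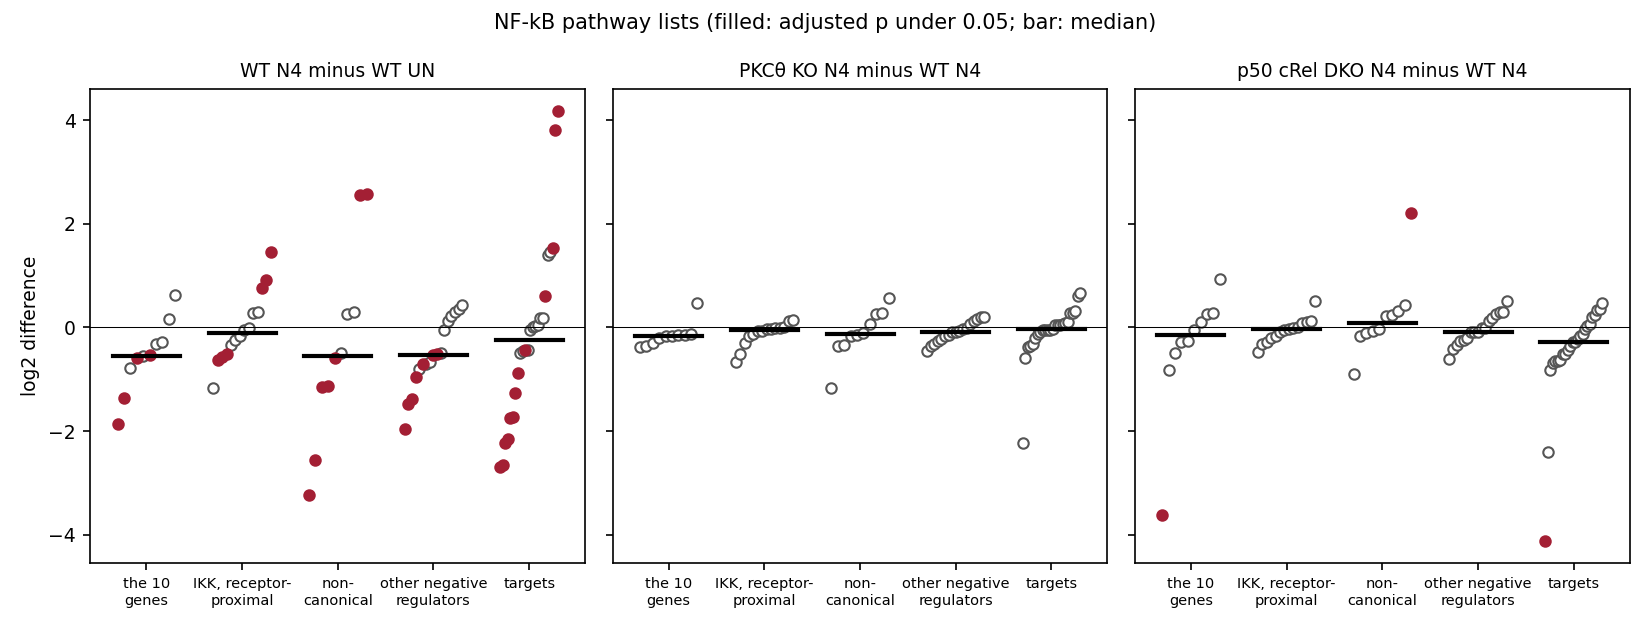
Differences of the 4 lists of other pathway genes and of the 10 members in 3 comparisons: the vertical axis is the log2 difference, points are genes, filled where the adjusted p was under 0.05, and bars are medians. With N4 in wild-type cells 9 of 65 pathway genes rose and 24 fell (17 and 14 with arrays centred on their medians), and in the double knockout Il2, Ltb and the member Rel are the filled points.

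Patterns over the 8 arrays were compared by Pearson's r of log2 values, as a description with no test, since the points share 4 groups and the arrays' scaling. Among the members the pairs Nfkbie with Nfkbiz and Rela with Nfkbia ran most alike (r = 0.95 for each), and Nfkb2 and Tnfaip3 ran most apart (r = -0.78). Of all other genes tested, those most like Rel were Stat5b (r = 0.963), Ehd1 (0.955), Lipo3 (0.941), Stat5a (0.941) and Krt71 (0.939). Stat5a averaged 11.24 in WT N4 and 10.33 in double knockout cells, a smaller step than that of Rel. Those most like Nfkbia were Ube3b (0.990), Emp3 (0.985), Susd6 (0.985), 4930523C07Rik (0.982) and Chd3 (0.981), all highest without peptide. Tmem141 (0.980), Kantr (0.977), Ikzf3 (0.975), Ankzf1 (0.973) and Rnf181 (0.966) ran most like Tnfaip3, and the mean of each was lower in the double knockout than in the other 3 groups.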

How the data were processed

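Each deposited intensity is a linear MAS5 signal of a probe set. The submitters' processing notes name GCOS 1.4 and MAS5 as tools. Genes were named through the platform annotation. The working scale was log2(signal + 16). Probe sets with a mean under the 40th percentile (5.38) were left out, and the brightest probe set of each gene by mean was used. A model with a mean per group was fitted to all 8 arrays with limma 3.58.1 (R 4.3.3; trended eBayes; 4 residual degrees of freedom) and tested on simulated data. Changed means an adjusted p (Benjamini-Hochberg, 12520 genes) under 0.05. A gene with several probe sets may be read differently by each, so all 20 were also tested one by one. The number of arrays limits the precision. MAS5 scaling sets each array's trimmed mean, so a change in the bulk of transcripts shifts all differences, and other scalings were tried, as were other pseudocounts, filters, probe set rules and fits, a replicate block, and leaving out each array.

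The members and lists were chosen with earlier results of these data known. Named beside the members are up to 4 genes of each pathway list with the lowest p per comparison, of which a part is printed, and the 5 genes most like Rel, Nfkbia and Tnfaip3. Groups came from the sample titles, and a title with no number was taken as replicate 1. Deviations from group means of same-numbered arrays correlated at 0.25 to 0.58 in all 6 pairs of groups. The labels do not state a pairing, so the main calls use no block, and a block for the number was fitted as an alternative. Promoter windows are RefSeq's (GRCm38.p6).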

Additional observations from a re-analysis of the deposited data

How the results depend on the processing

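Nfkbie and Nfkbiz in WT N4 against WT UN cells and Rel in the double knockout against WT N4 cells passed in all 18 alternatives, with log2 differences of -1.50 to -0.94, -2.07 to -1.43 and -3.96 to -2.92. No member past the test in the main analysis reversed its sign under an alternative. Leaving out each array in turn gave 2 to 6 members for WT N4 against WT UN, 0 for PKC theta KO N4 against WT N4, 1 for the double knockout against WT N4, 0 to 1 for it against PKC theta KO N4, 3 to 7 for PKC theta KO N4 against WT UN and 3 to 5 for the double knockout against WT UN. With arrays centred on their medians, PKC theta KO N4 against WT UN gave 3 members in place of 6, where 5389 in place of 5078 of all 12520 genes passed. Centring adds the same amount to every gene of a comparison, and the cause of the other shifts was not tested.

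With the replicate number as a block, WT N4 against WT UN gave 8 members (1 higher, 7 lower) in place of 4, the double knockout against WT N4 gave 3 in place of 1 (Relb, limma adjusted p = 0.0165, and Nfkbie, 0.0231, with Rel), and against PKC theta KO N4 it gave 2 in place of 1 (Relb, 0.0101, with Rel). Over all genes these last counts were 200 in place of 65 and 152 in place of 54. Against WT UN the block gave 8 in place of 6 for PKC theta KO N4 (Rel and Nfkbib added) and 7 in place of 5 for the double knockout (Rela and Nfkb2 added), and it left PKC theta KO N4 against WT N4 at 0. It ended no call of a member. Calls against WT UN rose over all 12520 genes as well. They went from 5101 to 6401 for WT N4, from 5078 to 6410 for PKC theta KO N4 and from 4917 to 6307 for the double knockout. Of the 65 pathway genes the block gave 10 higher and 31 lower for WT N4 against WT UN, and 3 higher and 2 lower between both knockouts, where Bcl10, Prkcq and Gadd45b were added. Over all genes the call counts of the double knockout were also small without its arrays: against WT N4 15 and 13 in place of 65, and against PKC theta KO N4 0 and 2 in place of 54.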
